A study of Mus musculus with 6 samples.

Results

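The Hedgehog pathway was described in the palate through 9 genes: the ligand Shh, the receptor Ptch1, the ligand-binding proteins Gas1, Cdon and Hhip, the signal transducer Smo and the transcription factors Gli1, Gli2 and Gli3. They were chosen by name, for their place in the pathway, and all 9 were found among the 56691 genes counted. Palatal shelves of C57BL/6J mice were microdissected at embryonic day (E) 14.0, and RNA of the anterior and of the posterior 1/3 was sequenced in bulk, with 3 libraries per region. The labels name no engineered allele and no treatment. The study calls these samples biologically independent, and how many embryos or litters went into each is not given in the sources used here. The p-values measure the spread between these samples. In bulk RNA, fewer cells of a type and less RNA per cell cannot be told apart.

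A Hedgehog ligand is made and lipidated by a sending cell and is bound on the receiving cell by Ptch1, helped by the co-receptors Gas1, Cdon and Boc. Without ligand, Ptch1 keeps Smo inactive and Gli3 is processed to a repressor; with ligand, Smo acts at the primary cilium and the GLI factors turn on their targets. Ptch1, Gli1 and Hhip are themselves targets in most tissues and are widely used as readouts of the response. In the palate, Shh is known from the oral epithelium, including the rugae, and its receptor and targets are known from epithelium and from the mesenchyme below it.

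Across the 9 genes, the ligand Shh and the co-receptor Gas1 were higher in the anterior palate, 2.42-fold and 1.41-fold, and no member passed the test toward the posterior palate. The 3 response genes did not lie on one side. Ptch1 and Gli1 had higher values in every anterior library than in any posterior library, whereas Hhip had higher values in every posterior library than in any anterior library, and none of the 3 passed the test. At an unadjusted p below 0.05 in the same fit, 5 members leaned anterior and 2 leaned posterior, beside 9.32% and 15.9% of all genes tested. DESeq2 called 4 members, Shh, Ptch1 and Gas1 toward the anterior and Hhip toward the posterior palate, beside 12.6% of all genes. Of all 15673 genes tested, 7.46% were called at an adjusted p below 0.05, 2.59% toward the anterior and 4.87% toward the posterior palate, beside 2 of the 9 members. The median log2 fold change (posterior over anterior palate) of the 9 members was -0.34, and that of all genes tested was -0.0040. Levels are given as CPM, the count of a gene scaled to a common library total after TMM normalization. Means are given ± SD over the 3 libraries of a region, SE is the standard error of a log2 fold change, and adjusted p-values are from edgeR's quasi-likelihood test with Benjamini-Hochberg adjustment over all genes tested.

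The reads counted on genes numbered 11378736 to 15172733 per library, so that 3 counts, the limit that a count of 0 allows, corresponded to 0.206 to 0.260 CPM. This limit covers counting error only. Posterior replicates 2 and 3 stood apart from the other 4 libraries, with 6.12% and 5.94% of reads mapping to several places against 8.45% to 8.77%, and with 0.973% and 1.14% mitochondrial counts against 2.70% to 2.97%. Epithelial markers (13 genes) summed to 1983 to 2108 CPM in the anterior and 1391 to 2224 CPM in the posterior palate. Among them, edgeR called 1, Trp63, and DESeq2 called 3, all toward the anterior palate, beside 7.46% and 12.6% of all genes. For 5 of the 13 the regions did not overlap, all with higher anterior values, beside 13.4% of all genes. The median log2 fold change of this list was -0.26. All 10 skeletal muscle markers were called toward the posterior palate, with sums of 8.27 to 12.4 CPM in the anterior and 595 to 1035 CPM in the posterior palate. The osteoblast markers summed to 1972 to 3558 CPM in the anterior and 295 to 1822 CPM in the posterior palate. Ibsp alone had 1403 to 2692 CPM in the anterior and 17.9 to 1279 CPM in the posterior libraries. Of the 6 tested, edgeR called 1 and DESeq2 called 4, all toward the anterior palate, where DESeq2 called 12.6% of all genes in either direction. For 5 of the 6 the regions did not overlap, with higher anterior values, beside 13.4% of all genes. Mesenchymal markers (10 genes) summed to 13487 to 14603 CPM in anterior and 17880 to 27738 CPM in posterior libraries. Col1a1, Col1a2 and Col3a1 were the highest of the list, at means of 4402, 3254 and 3053.5 CPM anterior and 7893, 5737 and 5620 CPM posterior. Of the 10 markers, 4 were called posterior and 1 anterior. The latter was Prrx1, the study's marker of neural crest-derived mesenchymal cells, with 1057.5 ± 21.3 CPM anterior and 417 ± 38.2 CPM posterior. Chondrocyte markers summed to 181 to 274 CPM in anterior and 524 to 776 CPM in posterior libraries, and 2 of the 6 tested were called, both posterior. Neuronal markers summed to 277 CPM in posterior replicate 2 and to 28.9 to 54.3 CPM in the other 5 libraries, and 1 of the 5 tested was called, toward the posterior palate. In the muscle list Myh8 was at 0 in 1 anterior library, and in the osteoblast list Bglap had 0 to 3 counts in the anterior and 0 in the posterior libraries and was not tested. The part of tissue composition in the Hedgehog values below was not tested.

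**Figure D1:**
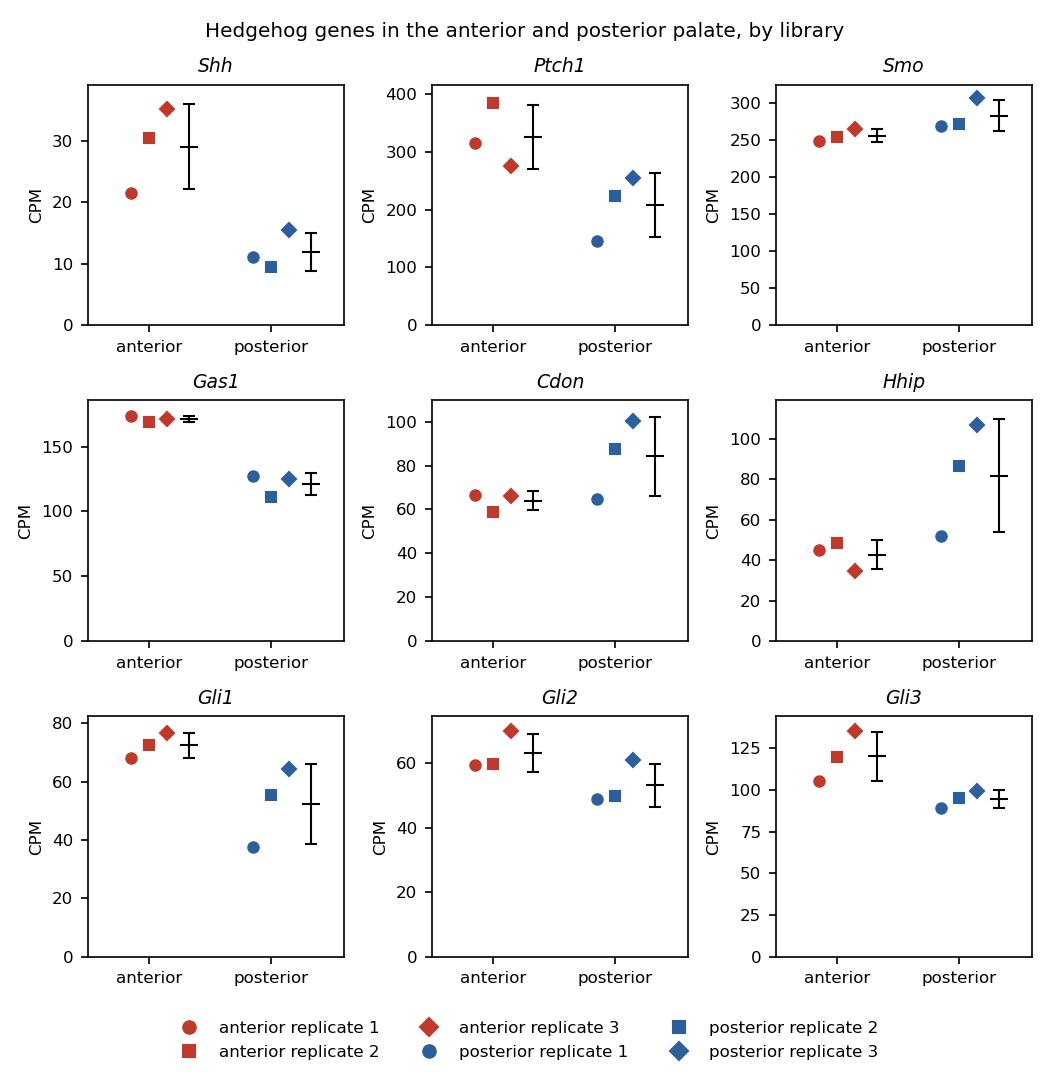
Level of each of the 9 Hedgehog genes in each library, in CPM on a linear axis from 0, with points for the 3 anterior and 3 posterior libraries and bars for the mean and SD. Shh, Gas1, Ptch1, Gli1 and Gli3 have all anterior points above all posterior points, Hhip and Smo have all anterior points below them, and the points of Gli2 and Cdon overlap.

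Shh, the ligand, lies on chromosome 5 (chr5:28456815-28467256, minus strand; all gene positions are GRCm38, GENCODE M21). Its level was 21.6, 30.5 and 35.1 CPM in anterior replicates 1 to 3 and 11.1, 9.46 and 15.4 CPM in posterior replicates 1 to 3. Every anterior library was above every posterior library, and the values rest on 131 to 420 counts per library. The mean was 29.1 ± 6.91 CPM in anterior and 12.0 ± 3.08 CPM in posterior libraries. The log2 fold change was -1.27 (SE 0.24, adjusted p = 0.0196), a difference larger than the spread between replicates. Without anterior replicate 2, anterior replicate 3 or posterior replicate 2, the adjusted p was 0.0871, 0.0756 and 0.0834, at log2 fold changes of -1.24, -1.12 and -1.13.

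Because palatal Shh is known from the epithelium, its counts were also set against the summed counts of the 13 epithelial markers. There were 10.3, 15.4 and 16.7 Shh counts per 1000 epithelial counts in anterior replicates 1 to 3, and 4.98, 6.00 and 11.1 in posterior replicates 1 to 3. On this scale the regions overlapped, since posterior replicate 3 lay above anterior replicate 1. The mean log2 ratio was -6.18 ± 0.37 in anterior and -7.17 ± 0.60 in posterior libraries, a difference of -0.998. Cdh1, an adhesion molecule of epithelial cells, had 160 ± 13.2 CPM in anterior and 158 ± 24.8 CPM in posterior libraries, and Krt5, a keratin of the basal layer, had 341 ± 42.9 and 179 ± 64.2 CPM.

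Of the other ligands, Ihh was near the level of Shh in the posterior palate and Dhh was low. Ihh, the ligand of cartilage and bone, had 10.3, 11.5 and 3.63 CPM in anterior replicates 1 to 3 and 5.32, 7.95 and 15.2 CPM in posterior replicates 1 to 3. The regions overlapped over most of this range, and the log2 fold change was 0.16 (SE 0.49, adjusted p = 0.851). Per kilobase of the longest coding transcript, Ihh had 3.44 ± 1.72 CPM in anterior and 3.85 ± 2.08 CPM in posterior libraries. Shh had 10.2 ± 2.43 and 4.21 ± 1.08 CPM on this scale. Dhh, the ligand known from Schwann cells and testis, had 6 to 10 counts per library (0.411 to 0.779 CPM) and did not pass the low-count filter. Disp1, which releases the lipidated ligand from the sending cell, had 27.0 ± 1.71 CPM in anterior and 31.1 ± 6.80 CPM in posterior libraries (adjusted p = 0.470). Of the list of 10 ligand and ligand-release genes, 9 were tested, and only Shh was called, beside 7.46% of all genes. Without posterior replicate 1, 4 of these genes were called, in a fit that called 46.4% of all genes, and 0 were called without anterior replicate 2, anterior replicate 3 or posterior replicate 2. The median log2 fold change of the list was -0.06, and it was -0.55 in a fit with a term that parts posterior replicates 2 and 3 from the rest (the library-group term).

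Ptch1, the receptor that holds Smo inactive and is itself induced by the signal, lies on chromosome 13 (chr13:63508328-63573598, minus strand). Its level was 316, 385 and 276 CPM in the anterior and 146, 223 and 255 CPM in the posterior libraries, in replicate order. The regions did not overlap, but the lowest anterior library (276 CPM) was close to the highest posterior library (255 CPM). The log2 fold change of -0.65 (SE 0.22) did not pass edgeR's test (adjusted p = 0.123). DESeq2 called it at a log2 fold change of -0.65 (adjusted p = 0.0339). Posterior replicate 1, the posterior library that did not stand apart from the anterior libraries in its mapping shares, had the lowest Ptch1 level of all 6.

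Gas1, a co-receptor anchored to the membrane by a lipid, lies on chromosome 13 (chr13:60174405-60177365, minus strand). It had 174, 169 and 171 CPM in the anterior and 127, 111 and 125 CPM in the posterior libraries. The anterior libraries lay close together, with an SD of 2.26 CPM, and all 3 were above the posterior libraries. The log2 fold change was -0.50 (SE 0.09, adjusted p = 0.0167). Of the 9 members, Gas1 had the smallest adjusted p although its fold was less than that of Shh, Ptch1 or Hhip. With the replicate number as a block the log2 fold change was -0.50 and the adjusted p was 0.0599. Leaving out anterior replicate 1, 2 or 3 or posterior replicate 2 gave adjusted p-values of 0.0968, 0.0925, 0.0745 and 0.0807.

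Cdon, a co-receptor of the immunoglobulin superfamily, lies on chromosome 9 (chr9:35421128-35507652, plus strand) and had 66.6, 59.0 and 66.3 CPM in the anterior and 64.6, 87.4 and 100.5 CPM in the posterior libraries. Posterior replicate 1 lay within the anterior range and posterior replicates 2 and 3 lay above it. The log2 fold change was 0.40 (SE 0.16, adjusted p = 0.183). Boc, its close relative, had the same arrangement of libraries, with 52.1, 49.8 and 64.5 CPM in the anterior and 51.3, 96.2 and 115 CPM in the posterior palate (log2 fold change 0.66, SE 0.28, adjusted p = 0.189). The library-group term takes the region difference from posterior replicate 1 against the anterior libraries. With it the log2 fold changes of Cdon and Boc were 0.02 and -0.11. Without posterior replicate 1 both were called, at 0.56 (adjusted p = 0.00137) and 0.94 (adjusted p = 0.000648), and without posterior replicate 3 they were 0.25 and 0.42 and were not called.

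Hhip, a membrane protein that binds the ligand without passing on the signal and is induced by it, lies on chromosome 8 (chr8:79965851-80058006, minus strand). Its level was 44.8, 48.6 and 34.6 CPM in the anterior and 52.0, 86.3 and 107 CPM in the posterior libraries. The regions did not overlap, and posterior replicate 1 (52.0 CPM) was close to the highest anterior library (48.6 CPM). The 1.92-fold higher posterior mean, a log2 fold change of 0.94 (SE 0.26), did not pass edgeR's test (adjusted p = 0.0759). DESeq2 called it at a log2 fold change of 0.93 (adjusted p = 0.00637). With the library-group term the log2 fold change was 0.28 (adjusted p = 0.476).

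Of 7 receptors, co-receptors and other ligand-binding proteins, with Smo, 1 (Gas1) was called anterior and 0 posterior, beside 2.59% and 4.87% of all genes. At an unadjusted p below 0.05 there were 2 toward the anterior and 3 toward the posterior palate, beside 9.32% and 15.9% of all genes. Without posterior replicate 1 the adjusted test called 5, beside 46.4% of all genes. None was called without any single anterior replicate or without posterior replicate 2. The median log2 fold change of these genes was 0.21. It was -0.11 with the library-group term.

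Smo, the transducer that acts when Ptch1 is bound by ligand, lies on chromosome 6 (chr6:29735503-29761365, plus strand). It had 248, 253 and 265 CPM in the anterior and 269, 271 and 306 CPM in the posterior libraries. The regions did not overlap, the nearest libraries being at 265 and 269 CPM, and the log2 fold change of 0.14 (SE 0.09) did not pass the test (adjusted p = 0.366). Of the 9 members, Smo had the log2 fold change nearest to 0. Gm13717, a processed pseudogene on the same strand, overlaps Smo and had 7 to 51 counts per library, against 3063 to 4461 for Smo. Sufu, which holds the GLI factors back in the cytoplasm, had 94.7 ± 7.94 CPM in anterior and 81.9 ± 5.75 CPM in posterior libraries (log2 fold change -0.21, adjusted p = 0.249). None of 17 transducers downstream of Smo and none of the 13 genes of ciliary transport was called by edgeR, and the medians were 0.15 and 0.20. With the library-group term the medians were -0.03 and -0.12, with the length correction that of the transducers was 0.0054, and without posterior replicate 1 edgeR called 7 of the transducers and 7 of the ciliary genes, shares near the 46.4% of all genes called in that fit. At an unadjusted p below 0.05 there were 0 of these transducers and 1 ciliary gene, and DESeq2 called 0 and 1. That gene was Dync2h1, a ciliary motor subunit, higher in posterior libraries and named after its values were seen.

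Gli1, an activator whose own transcription depends on the signal, lies on chromosome 10 (chr10:127329882-127341974, minus strand). Its level was 68.2, 72.5 and 76.6 CPM in the anterior and 37.5, 55.5 and 64.5 CPM in the posterior libraries. As for Ptch1, no posterior library reached the anterior range, and posterior replicate 1 was the lowest of all. The log2 fold change was -0.46 (SE 0.19, adjusted p = 0.179). With the library-group term it was -0.95 (adjusted p = 0.00254), and without posterior replicate 1 it was -0.27 (adjusted p = 0.0358). Arhgap9, on the opposite strand, overlaps Gli1 and had 21 to 26 counts per library, against 501 to 997 for Gli1.

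Gli2, the main activator, lies on chromosome 1 (chr1:118834132-119053619, minus strand) and had 59.4, 59.8 and 69.8 CPM in the anterior and 48.8, 49.9 and 60.8 CPM in the posterior libraries. Posterior replicate 3 lay among the anterior libraries, and the log2 fold change was -0.24 (SE 0.12, adjusted p = 0.260). Gli3, the main repressor, lies on chromosome 13 (chr13:15463235-15730026, plus strand). It had 105, 119.8 and 135 CPM in the anterior and 89.1, 95.2 and 99.6 CPM in the posterior libraries. Its regions did not overlap, and the log2 fold change was -0.34 (SE 0.11, adjusted p = 0.121). The 3 GLI factors thus each had a lower posterior mean, and none was called by edgeR or DESeq2, with 2 at an unadjusted p below 0.05 in the edgeR fit. With a correction for merged exon length Gli3 was called, at -0.61 (adjusted p = 0.0247).

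**Figure D2:**
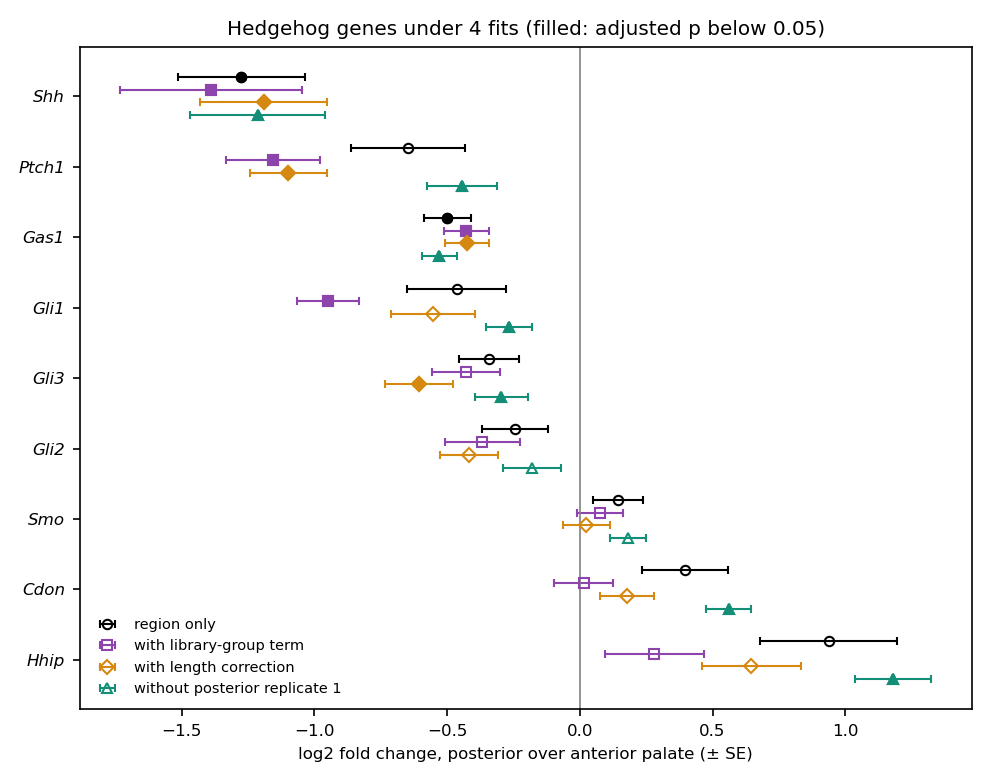
Log2 fold change of each Hedgehog gene, posterior over anterior palate, with its standard error, under 4 fits marked by symbol (region only, with the library-group term, with the length correction, and without posterior replicate 1), filled where the adjusted p is below 0.05. Shh and Gas1 are filled in all 4 fits, Ptch1 moves from -0.65 to -1.16 with the library-group term, and Hhip moves from 0.94 to 0.28.

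Which Hedgehog genes were called differed between these fits. With the library-group term, Shh, Ptch1, Gli1 and Gas1 were called, all toward the anterior palate, and 7.61% of all genes tested were called. In that fit Shh had a log2 fold change of -1.39 (adjusted p = 0.0495), Ptch1 of -1.16 (adjusted p = 0.00674) and Gas1 of -0.43 (adjusted p = 0.0204). It has 1 posterior library against 3 anterior libraries, and that lone library is assumed to vary like the others. With the length correction, Shh, Ptch1, Gli3 and Gas1 were called, with 8.91% of all genes; Ptch1 had a log2 fold change of -1.10 (adjusted p = 0.00325). Without posterior replicate 1, 7 of the 9 members were called: Shh, Ptch1, Gli1, Gli3 and Gas1 toward the anterior and Hhip and Cdon toward the posterior palate, where 46.4% of the genes tested were called. In the fit without posterior replicate 1, Hhip had a log2 fold change of 1.18 (adjusted p = 0.000469) and Ptch1 of -0.44 (adjusted p = 0.0265).

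By groups of libraries that do not overlap, 5 of the 9 members lay higher in the anterior palate (Shh, Ptch1, Gas1, Gli1 and Gli3) and 2 higher in the posterior palate (Smo and Hhip), while Gli2 and Cdon overlapped. Over all genes tested, 13.4% did not overlap and were higher in the anterior, and 14.7% were higher in the posterior palate. With 3 libraries against 3, an exact two-sided permutation test of 1 gene cannot give a p below 0.1.

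The median log2 fold change of the 3 response genes (Ptch1, Gli1 and Hhip) was -0.46. It was -0.95 with the library-group term and -0.27 without posterior replicate 1, where all 3 were called, beside 46.4% of all genes. Hhip, on the opposite side of 0, was then set against Ptch1 within each library, a comparison chosen after its values were seen and given without a test. There were 142, 126 and 125 Hhip counts per 1000 Ptch1 counts in anterior replicates 1 to 3 and 355, 387 and 420 in posterior replicates 1 to 3. The regions had to lie apart on this scale, since every posterior library was higher in Hhip and lower in Ptch1 than every anterior library. Their separation is therefore not a result beyond those of Hhip and Ptch1. The mean log2 ratio was -2.93 ± 0.10 in anterior and -1.37 ± 0.12 in posterior libraries, a difference of 1.56. The ratio compares counts within a library, so it does not depend on the normalization between libraries.

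**Figure D3:**
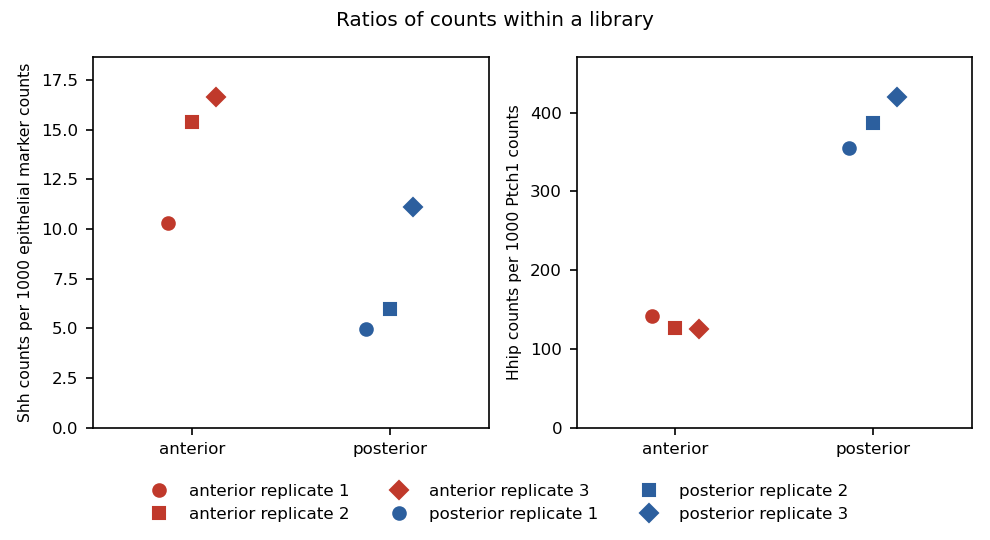
Ratios of counts within each library: Shh per 1000 counts of the summed epithelial markers and Hhip per 1000 Ptch1 counts, on linear axes from 0, with 1 point for each of the 3 anterior and 3 posterior libraries. The Shh ratio overlaps between the regions (10.3 in anterior replicate 1, 11.1 in posterior replicate 3), and the Hhip ratio lies at 125 to 142 in anterior and 355 to 420 in posterior libraries.

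The sequences before the starts of Ptch1 and Hhip are shown because the values of these response genes lay on opposite sides. RefSeq promoter windows (GRCm38.p6) matched 7 of the 9 members by symbol, all except Shh and Gli1. Each run below gives the 250 bases before the start, 5′ to 3′ on the strand of the gene, with GC boxes (GGGCGG or its reverse complement CCGCCC) in capitals. The Ptch1 window, at chr13:63565736-63565985 (minus strand), belongs to 1 of its start sites. The Hhip window is at chr8:80058009-80058258 (minus strand).
Ptch1: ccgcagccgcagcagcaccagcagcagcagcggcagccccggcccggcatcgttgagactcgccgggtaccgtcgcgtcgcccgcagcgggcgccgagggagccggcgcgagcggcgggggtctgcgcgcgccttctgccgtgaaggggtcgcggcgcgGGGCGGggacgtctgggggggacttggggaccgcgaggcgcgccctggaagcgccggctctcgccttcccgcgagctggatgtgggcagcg
Hhip: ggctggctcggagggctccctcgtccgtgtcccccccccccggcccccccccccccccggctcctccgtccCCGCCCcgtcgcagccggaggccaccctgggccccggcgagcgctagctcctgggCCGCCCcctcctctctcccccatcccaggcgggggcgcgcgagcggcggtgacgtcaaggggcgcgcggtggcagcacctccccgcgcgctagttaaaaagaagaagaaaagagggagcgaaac

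Both windows are rich in G and C, with 78.4% in Ptch1 and 76.0% in Hhip, and hold 1 and 2 GC boxes. A GC box was found in the windows of 5 members (Gli2, Hhip, Gli3, Gas1 and Ptch1) and in 32.7% of all 32851 windows of the same length. The GLI consensus GACCACCCA, searched on both strands, was found in 0.225% of all windows and in 0 of the 7 member windows, which says only that these letters are not in the 250 bases before these starts. A match is a description of the letters and was not taken as a site.

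Between genes, levels were compared as CPM per kilobase of the longest coding transcript. In the anterior palate Smo had 67.6 ± 2.28, Gas1 57.9 ± 0.764 and Ptch1 42.2 ± 7.13 CPM per kilobase, and in the posterior palate they had 74.7 ± 5.46, 41.0 ± 2.92 and 26.9 ± 7.22 CPM per kilobase. These 3 surface proteins thus held the first 3 places in both regions, with no overlap between neighbours. Gli1 (17.9 anterior, 12.9 posterior) and Gli3 (14.7 anterior, 11.6 posterior) came next in both, and their posterior libraries overlapped.

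The ligand and its binding protein Hhip changed places in the lower part of the order. Shh was the sixth of the 9 in the anterior palate, with 10.2 ± 2.43 CPM per kilobase, and the last in the posterior palate, with 4.21 ± 1.08 CPM per kilobase. Hhip was the last in the anterior palate, with 4.70 ± 0.797 CPM per kilobase, and the seventh in the posterior palate, with 9.01 ± 3.07 CPM per kilobase. Of neighbours in the order, Shh and Gli2 overlapped in the anterior palate, and Gli1 and Gli3, Gli3 and Cdon, Cdon and Hhip, and Hhip and Gli2 overlapped in the posterior palate. These levels per length use the longest coding transcript of each gene in the GENCODE M21 basic set. It may be longer than the transcripts in the tissue.

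**Figure D4:**
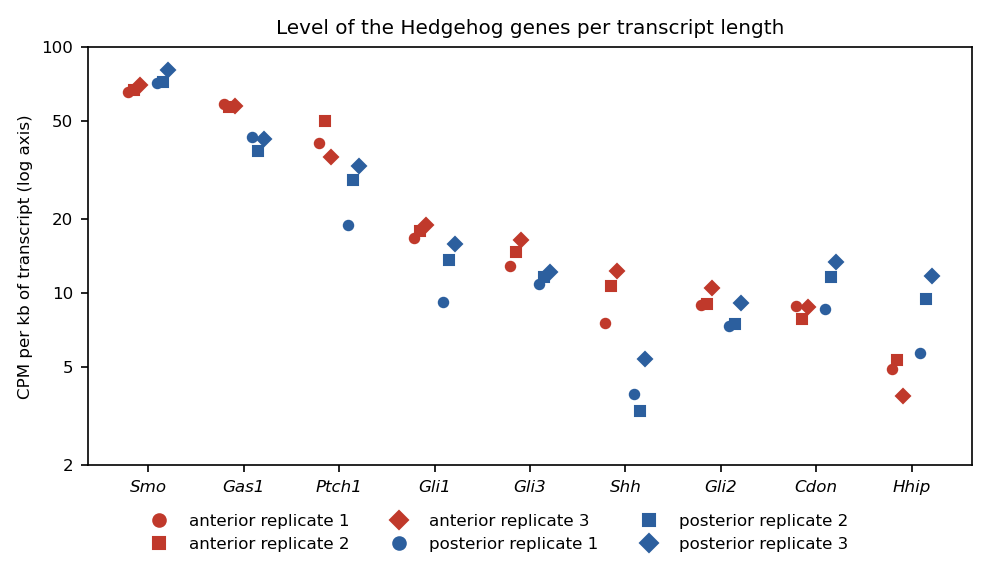
Level of each Hedgehog gene in CPM per kilobase of the longest coding transcript on a log axis. Points show the 3 anterior and 3 posterior libraries, and genes are ordered by the anterior mean. Smo is the highest in both regions (67.6 and 74.7 on average), Shh is at 10.2 in anterior and 4.21 in posterior libraries, and Hhip is at 4.70 and 9.01.

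Among 10 genes of the mesenchyme known as targets or partners of Hedgehog signalling, 2 were called toward the anterior and 2 toward the posterior palate, beside 2.59% and 4.87% of all genes tested. Foxf1, a forkhead factor induced by Hedgehog ligands in mesenchyme, had 78.5, 112.6 and 115 CPM in the anterior and 15.4, 20.4 and 23.2 CPM in the posterior libraries. It was 5.19-fold higher in the anterior palate (log2 fold change -2.37, SE 0.20, adjusted p = 0.000744). Foxd2 was higher by more, with 25.0 to 36.8 CPM in the anterior and 0.898 to 3.25 CPM in the posterior libraries (log2 fold change -4.10, SE 0.43, adjusted p = 0.00171). Its relative Foxd1 lay on the other side, with 21.8 to 29.5 CPM in the anterior and 87.5 to 114.6 CPM in the posterior libraries (log2 fold change 1.93, SE 0.16, adjusted p = 0.000605). Ccnd1, which encodes the cell cycle regulator cyclin D1, had 178 to 234 CPM in the anterior and 298 to 382 CPM in the posterior libraries (log2 fold change 0.69, SE 0.14, adjusted p = 0.0264). The call of Ccnd1 was lost when any replicate other than posterior replicate 1 was left out (adjusted p = 0.0511 to 0.122). The genes of this list that were called thus lay on both sides, and the list median was -0.40. With the library-group term the median was -0.08, and without posterior replicate 1 the number called was 9 in place of 4, beside 46.4% of all genes.

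Of 6 FGF and BMP genes known as partners of Shh in the palate, 1 was called in each direction. Over all genes tested, 2.59% were called toward the anterior and 4.87% toward the posterior palate. Without posterior replicate 1, 4 of the 6 were called, beside 46.4% of all genes. Fgf10, a mesenchymal ligand that signals to the epithelium, had 29.7, 29.1 and 31.1 CPM in the anterior and 12.6, 16.1 and 14.5 CPM in the posterior libraries (log2 fold change -1.06, SE 0.13, adjusted p = 0.00297). The regions were well apart, and the anterior mean was 2.08-fold higher. Fgf18, known from the mesenchyme and from skeletal growth, had 5.46, 5.96 and 7.44 CPM in the anterior and 19.2, 15.2 and 16.0 CPM in the posterior libraries, on the opposite side (log2 fold change 1.42, SE 0.17, adjusted p = 0.00344).

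**Figure D5:**
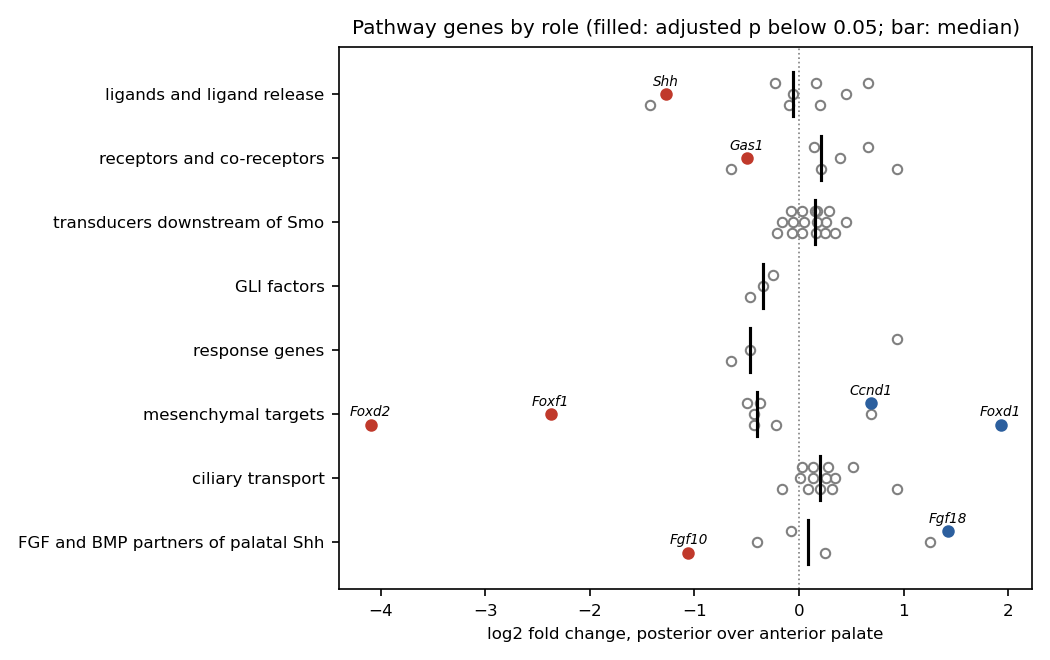
Log2 fold change, posterior over anterior palate, of each tested gene in 8 lists of the Hedgehog pathway and its targets and partners, 1 row per list, with filled points where the adjusted p is below 0.05 and a bar at the list median. The 17 transducers and 13 ciliary genes have no filled point, and the mesenchymal targets spread from -4.10 (Foxd2) to 1.93 (Foxd1).

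The genes whose levels followed Shh, Ptch1 and Gli1 most closely over the 6 libraries were taken from 10376 genes with a mean of at least 10 CPM, by Pearson's r of log2 CPM. For Shh, Eps8l2 (r = 0.995) and Igsf9 (r = 0.986) were among the first 3. For Ptch1 they were Chek1 (r = 0.993), Kbtbd11 (r = 0.992) and Mthfd1 (r = 0.991). For Gli1 they were Col17a1 (r = 0.992), which encodes a collagen of the epithelial basement membrane zone, Gucy1b1 (r = 0.992) and Prcp (r = 0.982). These values are a description over 6 libraries that share region, depth and the library groups. They are the highest of many, and r says nothing of the size of a change: Chek1 ranged from 42.6 to 49.1 CPM where Ptch1 ranged from 146 to 385 CPM.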

How the data were processed

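Bulk RNA-seq of 6 libraries was analysed, grouped by the region in their labels. For each library the deposited files hold, per Ensembl gene, raw counts of reads made by the authors, unstranded and for each strand. The methods of the study name HISAT2, StringTie and DESeq2 1.30.1 with mm10, whereas the layout is that of STAR's gene counts; the annotation release is not given in the sources used here. The reverse-stranded counts were used, which were 18.95 to 23.1 times those of the other strand. The summary lines that name no gene stayed out (unmapped reads, 2.71% to 4.65%; reads mapping to several places, 5.94% to 8.77%; reads on no gene, 5.92% to 8.71%; ambiguous reads, 1.84% to 1.99%). Symbols, positions and merged exon lengths came from GENCODE M21 by identifier with the version dropped (52073 of 56691 had a symbol, 35 with the same version).

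The test was edgeR's quasi-likelihood test (edgeR 4.0.16 under R 4.3.3, TMM, region as the only term, Benjamini-Hochberg, threshold 0.05) on genes that reached 10 counts in 3 or more libraries, and was tested on simulated data. Correlations used a prior count of 2. Alternatives were RLE normalization, library size only, no low-count filter, DESeq2 1.42.0, limma-voom (version 3.58.1 of limma), a block for the replicate number and unstranded counts. Further alternatives were a term for the library groups parted by a gap of 2.33 percentage points in multimapping, a correction for merged exon length, and leaving out each replicate. The Hhip to Ptch1 ratio was added after seeing the data.

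The members and lists were chosen with earlier results of these data known. Named are all members and each called gene of the 8 Hedgehog and partner lists. Ihh, Dhh, Boc, Disp1 and Sufu are also named, with the 3 genes most like Shh, Ptch1 and Gli1. Chosen after values were seen were Dync2h1 and the overlapping genes Arhgap9 and Gm13717. So were the markers Cdh1, Krt5, Trp63, Myh8, Bglap, Ibsp, Prrx1, Col1a1, Col1a2 and Col3a1. Some genes that the rule and lists held were left out and are not reported here, and the lists were counted without them.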

Additional observations from a re-analysis of the deposited data

How the results depend on the processing

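All 9 members had the same direction under every alternative. Shh was called in each one that kept all 6 libraries, and Gas1 in each of these but the replicate block. Leaving out 1 replicate gave between 0 and 7 members called. DESeq2 called 4 members, no low-count filter 4, the library-group term 4, the length correction 4 and the replicate block 1. The numbers do not pair the samples: deviations of same-numbered samples had correlations of -0.053, 0.045 and 0.036. With the block, 829 genes were called, 237 of them toward the anterior palate.

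Over all genes, DESeq2 called 1978 (637 anterior, 1341 posterior) and no low-count filter 2162 (646 and 1516). Leaving out a replicate gave 498 to 7119 genes, 140 to 3242 anterior and 312 to 3877 posterior, with the highest of each without posterior replicate 1. Library size alone gave 477 anterior and 690 posterior calls.

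The direction turned with the library-group term for 3 genes that were not called, Ihh to -0.68, Boc to -0.11 and Disp1 to -0.17. The log2 fold change of Ihh ranged from -0.36 to 0.44 when 1 replicate was left out, at -0.20 without anterior replicate 3 and -0.36 without posterior replicate 3. The cause was not tested. Of the list medians with all libraries, 64 values moved by less than the spread between replicates and 8 by more. The difference in the Shh to epithelial marker ratio stayed within that spread under all alternatives run. Dhh, with 6 to 10 counts per library, did not pass the low-count filter, so that the fits with that filter give no value for it.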
